A study of Capra hircus with 9 samples.

Results

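Amino acids do not cross membranes unaided, and cells take them up through solute carrier (SLC) proteins. The genes described here are the members of 7 SLC families: SLC1, SLC3, SLC6, SLC7, SLC36, SLC38 and SLC43. They were chosen by symbol, as the rows of the gene count table whose name is one of these family names followed by A and a number. Of the 25671 rows of the table, 57 matched: 7 of SLC1, 2 of SLC3, 18 of SLC6, 12 of SLC7, 4 of SLC36, 11 of SLC38 and 3 of SLC43. Family membership follows sequence and not substrate alone, so the set also holds carriers of monoamines, GABA, taurine and creatine, and SLC43A3, which carries purine nucleobases.

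The families differ in mechanism. SLC1 and SLC6 carriers are driven by sodium, SLC38 carriers mostly by sodium, and SLC36 carriers by protons, while most SLC7 light subunits exchange one amino acid for another and reach the plasma membrane only when bound to an SLC3 heavy subunit. In ruminants the conceptus elongates before it attaches, and until then it is fed by uterine secretions that are rich in amino acids, which carriers of the uterine lining help to supply. The roles named below are known mainly from human and rodent proteins.

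RNA was sequenced from uteri of goats of the Liaoning Cashmere breed at day 6, day 16 and day 19, with 3 libraries per day. The sample labels place the days around implantation without saying from what event they are counted, and the design text words them as ages. The tissue field names the uterus, the series title endometrial epithelium and the treatment protocol testis, and no genotype, treatment or age of the animals is given. The labels do not say whether the libraries of a day are separate animals, and the p-values measure only how far these samples spread, which may be technical.

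The libraries held 8712751 to 11074693 counts, with 18530 to 19243 genes detected in each, and the 57 genes took 0.114% to 0.171% of the counts. Day 19 replicate 1 stood apart. Over genes with at least 90 counts in all, which are not independent replicates, its Spearman rho was 0.886 and 0.89 with the other day 19 libraries and 0.942 to 0.961 with the day 16 libraries, while day 19 replicates 2 and 3 reached 0.982 with each other. Ribosomal protein genes held 2.42% of its counts, against 5.64% and 6.61% in the other day 19 libraries and 3.64% to 4.34% at days 6 and 16. Among the 40 carriers tested, 15 lay at least 2-fold above and 3 at least 2-fold below both other day 19 libraries in it, which is 45%, against 28.2% of all genes tested. In each of the other 8 libraries that share was between 2.5% and 10% of the carriers, and between 3.17% and 5.44% of all genes tested. Results are therefore given with all 9 libraries first. Calls that differ without this library follow for the reported carriers.

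The labelled uterus was checked against marker genes. Epithelial markers (19 of 19 in the table tested) summed to 1951–2120 CPM on day 6, 2491–2654 CPM on day 16 and 1734–3002 CPM on day 19, and EPCAM was at 186–206, 283–383 and 210–423 CPM on these days. Smooth muscle markers summed to 9849 to 35599, 22137 to 23402 and 28357 to 45737 CPM, and stromal fibroblast markers to 29480 to 32549, 18361 to 22833 and 19338 to 28688 CPM, so these libraries held muscle and stroma beside the epithelium. Of the 8 testis germ cell markers in the table, SYCP3, TNP1, ODF1 and ACRV1 had 0 counts in all 9 libraries, and all 8 summed to 0.291 to 2.52 CPM per library. CPM here is the count scaled to a common library total after TMM scaling. It is not corrected for transcript length, so levels are compared between days and never between genes.

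Of the 57 carriers, 40 passed the filter on low counts and were tested: 4 of SLC1, 2 of SLC3, 8 of SLC6, 9 of SLC7, 4 of SLC36, 10 of SLC38 and 3 of SLC43. The other 17 were SLC1A2, SLC1A6, SLC1A7, SLC6A3, SLC6A5, SLC6A7, SLC6A11 to SLC6A16, SLC6A19, SLC7A3, SLC7A11, SLC7A14 and SLC38A8. Their counts over all 9 libraries ran between 0 and 61, and SLC6A5, SLC6A11 and SLC7A14 had 0 counts in every library. SLC7A11, the light subunit of cystine and glutamate exchange, had 8 counts in all, and SLC6A14 and SLC6A19, carriers of a broad range of neutral amino acids, had 17 and 1. Day 19 held 24 counts of SLC1A7, a glutamate carrier of the retina, and day 6 held 3, a ratio of 8.26 (95% counting interval 2.51 to 42.9).

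In the comparison of day 16 with day 6, which asks what differed between the earliest and the middle time point, 8 of the 40 tested carriers differed (20%), against 8.86% of all 16098 genes tested. The 6 that were higher at day 16 were SLC7A9, SLC3A1, SLC3A2, SLC36A2, SLC36A3 and SLC43A1, and the 2 that were lower were SLC6A4 and SLC6A8, beside 5.12% of genes higher and 3.74% lower (edgeR quasi-likelihood test, adjusted p under 0.05). Between day 19 and day 6, 18 carriers differed (45%), 9 higher and 9 lower, against 22.9% of all genes (12.7% higher and 10.2% lower). Between day 19 and day 16, 2 differed (5%), SLC1A1 and SLC7A9, both lower at day 19, against 1.2% of all genes (0.516% higher and 0.683% lower). An F test over the 3 days called 14 (35%), against 19.6% of all genes. SLC1A3, SLC1A5, SLC6A20, SLC7A6 and SLC38A2, called for day 19 over day 6, were not called by the F test (adjusted p of 0.078 to 0.101). DESeq2 called 10 of 45, 21 of 45 and 4 of 39 carriers in the pairwise comparisons in this order (22.2%, 46.7% and 10.3%). Of all genes it called 12.3%, 26.9% and 10.4%, so for day 19 against day 16 the carriers' share was near that of all genes. Its test over the 3 days called 19 of 43 carriers (44.2%) and 28.4% of genes. The 3 comparisons share days and therefore libraries. Over the carriers tested, the median log2 change was 0.12 for day 16 over day 6, -0.32 for day 19 over day 6 and -0.42 for day 19 over day 16, where the median over all genes tested lay between -0.000273 and 0.0225. These medians describe the carriers that passed the filter and not the 57 as a whole.

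Without day 19 replicate 1 the counts were 14 for day 16 against day 6, 28 for day 19 against day 6, 17 for day 19 against day 16 and 26 by the F test. The background grew with them, to 20.4%, 54.2%, 44.7% and 59.1% of genes, while the carriers stood at 35%, 70%, 42.5% and 65%. Of the 14 carriers called for day 16 against day 6, 7 were higher and 7 lower (10.7% and 9.67% of genes), and of the 28 for day 19 against day 6, 10 were higher and 18 lower (27.2% and 27% of genes). For day 19 against day 16 the carriers' share was then close to that of all genes. Of the 17 carriers called there, 2 stood higher and 15 lower at day 19 (21.6% and 23.1% of genes).

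**Figure D1:**
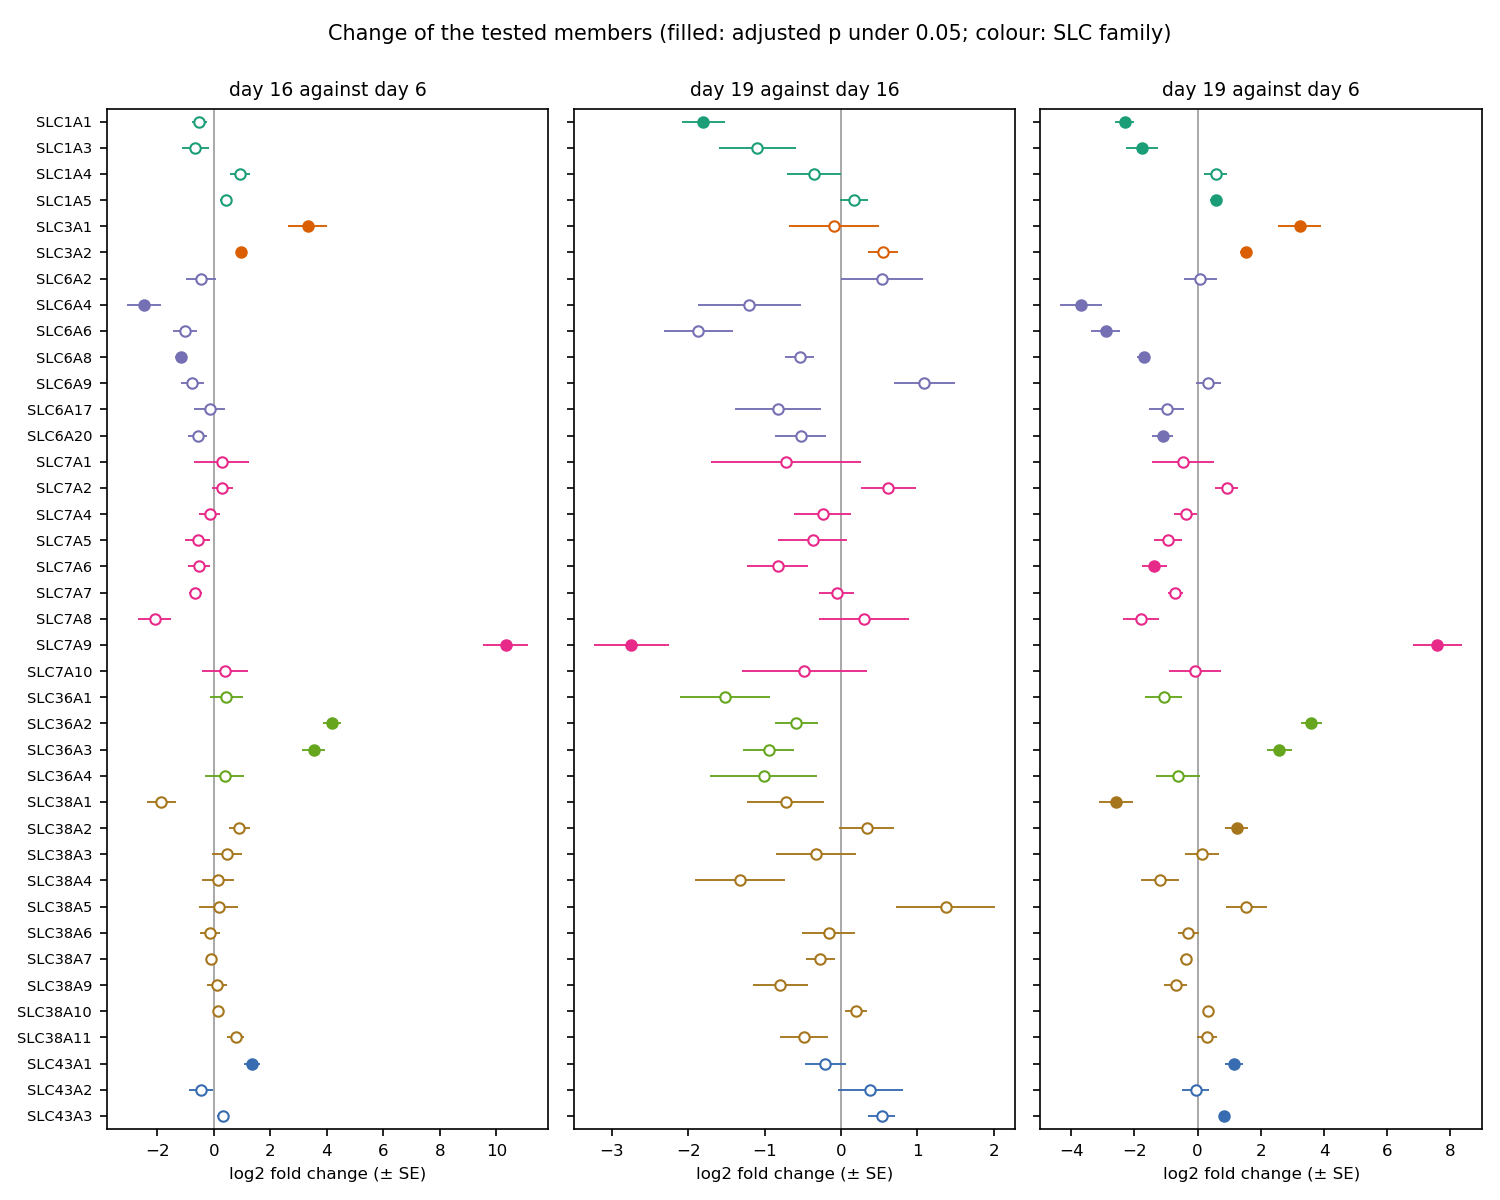
Log2 fold changes of the tested carriers reported here, grouped by SLC family, in 1 panel per comparison (day 16 over day 6, day 19 over day 16, day 19 over day 6), with bars of 1 SE from the edgeR fit to all 9 libraries; the panels have different horizontal scales. SLC7A9 lies far to the right in both comparisons with day 6, at 10.33 and 7.58, and the called SLC6 carriers lie left of 0.

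The largest change of any tested carrier was that of SLC7A9, the light subunit that takes up cystine and basic amino acids in exchange for neutral ones at the apical face of kidney and intestinal epithelium. SLC7A9 stood at 0.186, 0 and 0.195 CPM at day 6, at 173, 112 and 265 CPM at day 16, and at 40.2, 30.6 and 11.1 CPM at day 19. The day 6 libraries held 4 counts in all, every later library was far above them, and the day 19 libraries all lay below the day 16 libraries. The log2 fold change of day 16 over day 6 was 10.33 (SE 0.80, adjusted p = 0.000172), and the counts of those days gave a ratio of 1458 (95% counting interval 569 to 5352). For day 19 over day 6 the log2 change was 7.58 (SE 0.78, adjusted p = 0.000317). SLC7A9 was lower at day 19 than at day 16 by a log2 change of -2.75 (SE 0.49, adjusted p = 0.0452). That call was lost when any library other than day 19 replicate 1 was left out, with adjusted p-values of 0.0748 to 0.175, and without day 19 replicate 1 it was -3.12 at an adjusted p of 0.00251. In bulk samples, fewer cells of a type and less RNA per cell cannot be told apart.

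SLC3A1, the heavy subunit that partners SLC7A9 in the kidney, was also higher on the later days, by a smaller factor. SLC3A1 had 1.86, 0.721 and 1.36 CPM at day 6, 19.3, 2.96 and 17.6 CPM at day 16, and 7.38, 15.1 and 15.0 CPM at day 19. No later library overlapped day 6, although day 16 replicate 2 lay close to it. SLC3A1 rose at day 16 over day 6 by 3.32 on the log2 scale (SE 0.69, adjusted p = 0.0161). This call was lost without day 6 replicate 2, day 6 replicate 3 or day 16 replicate 1, at adjusted p-values of 0.0599 to 0.0735. At day 19 over day 6 the log2 change was 3.23 (SE 0.69, adjusted p = 0.00997), and at day 19 over day 16 it was -0.09 (adjusted p = 0.933). The log2 ratio of SLC7A9 counts to SLC3A1 counts in the same library averaged -3.16 ± 0.69, 4.10 ± 1.04 and 1.01 ± 1.44 on days 6, 16 and 19 (mean ± SD of 3 libraries, with 0.5 added to each count). The ratio was thus highest in the day 16 libraries, and it is a description without a test.

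SLC3A2, the heavy subunit of most other SLC7 light subunits and a partner of integrins, was higher at days 16 and 19 than at day 6. SLC3A2 stood at 86.0, 123 and 115 CPM at day 6, 217, 241 and 178 CPM at day 16, and 323, 297 and 314 CPM at day 19. The libraries of the 3 days did not overlap. It was 1.96-fold higher at day 16 than at day 6 (log2 change 0.97, SE 0.20, adjusted p = 0.0137) and 2.88-fold higher at day 19 than at day 6 (log2 change 1.53, SE 0.20, adjusted p = 0.000929). The day 16 call did not hold when replicate 1 or 3 of day 6, or replicate 1 or 2 of day 16, was left out, at adjusted p-values of 0.0556 to 0.0638. Day 19 exceeded day 16 by 0.55 on the log2 scale (adjusted p = 0.137), a difference that passed without day 19 replicate 1 (0.54, adjusted p = 0.0311).

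None of the tested light subunits that pair with SLC3A2 rose with it. SLC7A6, which exchanges basic for neutral amino acids, was lower at day 19, at 8.64, 3.79 and 4.13 CPM, against 17.1, 13.6 and 12.1 CPM at day 6, and day 16 lay between, at 14.3, 6.38 and 8.74 CPM. Its log2 change of day 19 over day 6 was -1.36 (SE 0.40, adjusted p = 0.0359), and among the fits that left out 1 library the call held only without day 16 replicate 1, day 16 replicate 2 or day 19 replicate 1, with adjusted p-values of 0.0559 to 0.114 without any of the others. SLC7A6 was, without day 19 replicate 1, also called lower at day 19 than at day 16 (-1.29, adjusted p = 0.0149). SLC7A8, which exchanges neutral amino acids at the basolateral face of epithelia, had 8.08, 11.7 and 9.55 CPM at day 6, 1.05, 1.37 and 4.33 at day 16, and 1.17, 3.30 and 4.02 at day 19. All 6 later libraries of SLC7A8 lay below all 3 day 6 libraries.

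The F test called SLC7A8 (adjusted p = 0.0405), while its comparisons with day 6 just missed the threshold, at a log2 change of -2.10 for day 16 (adjusted p = 0.0557) and -1.79 for day 19 (adjusted p = 0.0505). Without day 19 replicate 1 both passed, at adjusted p-values of 0.0127 and 0.0432. SLC7A5, the carrier of large neutral amino acids that many growing cells use for leucine, had 14.2, 17.1 and 8.58 CPM at day 6, 9.48, 11.05 and 6.31 at day 16, and 12.04, 3.99 and 4.65 at day 19. Day 19 replicate 1 overlapped day 6 and the other day 19 libraries did not. The log2 change of SLC7A5 at day 19 over day 6 was -0.94 (adjusted p = 0.156), and without that library it was -1.61 (adjusted p = 0.00423), with -1.03 for day 19 over day 16 (adjusted p = 0.0403).

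SLC7A7, the basolateral exchanger of basic amino acids, had 52.7, 28.0 and 42.4 CPM at day 6, 25.0, 26.8 and 26.8 at day 16, and 23.0, 27.3 and 25.3 at day 19. All later libraries lay below the lowest of day 6, and the log2 change of day 19 over day 6 was -0.70 (adjusted p = 0.0544) with all libraries and -0.63 (adjusted p = 0.0439) without day 19 replicate 1. SLC7A10, an exchanger of small neutral amino acids, ran between 0.680 and 8.21 CPM over the 9 libraries without separating the days. The log2 ratio of SLC7A8 to SLC3A2 counts averaged -3.46 ± 0.11, -6.79 ± 1.25 and -6.93 ± 0.98 on days 6, 16 and 19 (mean ± SD of 3 libraries). For SLC7A5, SLC7A6 and SLC7A7 over SLC3A2 the mean log2 ratio was likewise lower on each later day, at -5.67, -5.91 and -3.63 on day 19, against -3.06, -2.92 and -1.43 at day 6. The ratios over SLC3A2 all share its counts, so its higher level on the later days lowers each of them.

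**Figure D2:**
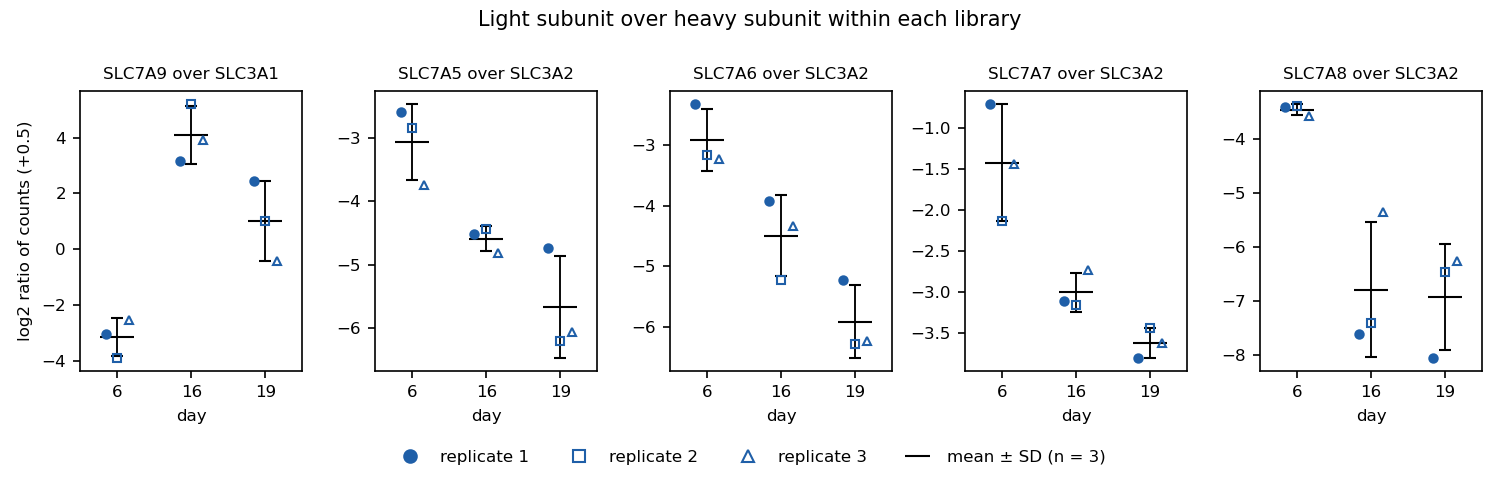
Log2 ratios of counts within a library for light over heavy subunits, by day (points are libraries, bars the mean ± SD of 3, with 0.5 added to each count). The ratio of SLC7A9 to SLC3A1 peaks at day 16, and the ratios of SLC7A5 to SLC7A8 over SLC3A2 have lower means on the later days.

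The cationic carriers that need no heavy subunit showed how much day 19 replicate 1 weighs. SLC7A1, the widespread carrier of arginine and lysine, had 21.8, 26.2 and 21.7 CPM at day 6, 34.02, 18.7 and 31.6 at day 16, and 47.1, 2.496 and 1.38 at day 19. The highest and the lowest values of SLC7A1 were thus both found at day 19. With all libraries the log2 change of day 19 over day 6 was -0.45 (SE 0.98, adjusted p = 0.764). Without day 19 replicate 1 it was -3.56 (adjusted p = 5.29e-05), and that of day 19 over day 16 was -3.83 (adjusted p = 7.49e-05). SLC7A2, a cationic carrier of liver and activated macrophages, had 30.9 and 40.4 CPM in day 19 replicates 2 and 3 and 81.7 in replicate 1, against 18.6 to 32.8 at day 6, and was not called in any comparison (adjusted p of 0.0933 to 0.744).

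In the proton-coupled SLC36 family 2 of 4 genes rose and the other 2 were not called with all 9 libraries. SLC36A2, a carrier of glycine and proline, had 2.60, 4.02 and 4.09 CPM at day 6, 62.1, 81.2 and 52.2 at day 16, and 51.7, 49.5 and 29.2 at day 19. Every later library lay above every day 6 library. SLC36A2 rose 18.2-fold at day 16 over day 6 (log2 change 4.19, SE 0.32, adjusted p = 0.000172) and 12.2-fold at day 19 over day 6 (log2 change 3.60, SE 0.32, adjusted p = 0.000148). SLC36A3, a little characterised relative, was low throughout and showed the same order of days, with 0.278, 0.412 and 0.390 CPM at day 6, 5.05, 3.99 and 3.79 at day 16, and 2.43, 2.30 and 1.90 at day 19. Its log2 change was 3.53 at day 16 over day 6 (SE 0.39, adjusted p = 0.000665) and 2.58 at day 19 over day 6 (SE 0.39, adjusted p = 0.00203). These 4 calls held in every alternative that was run. Without day 19 replicate 1, SLC36A3 was also called lower at day 19 than at day 16 (-1.01, adjusted p = 0.0488).

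SLC36A1, the family member of lysosomes and the plasma membrane, had 30.4, 33.8 and 27.8 CPM at day 6, 33.4, 58.7 and 33.5 at day 16, and 31.6, 6.49 and 5.61 at day 19. Its day 19 replicate 1 lay among the day 6 libraries and the other day 19 libraries lay below them. The log2 change of day 19 over day 6 was -1.07 (adjusted p = 0.205), and without that library -2.33 (adjusted p = 0.000157), with -2.77 for day 19 over day 16 (adjusted p = 0.000116). SLC36A4, a carrier of proline and tryptophan, had 7.67, 0.599 and 1.59 CPM at day 19, against 4.09 to 5.87 at day 6, and its replicate 1 likewise lay above the others. Its log2 change of day 19 over day 6 was -0.62 (adjusted p = 0.538) with all libraries and -2.20 (adjusted p = 0.00232) without that one, when day 19 over day 16 was -2.59 (adjusted p = 0.00132). In a RefSeq gene table of the goat, SLC36A1, SLC36A2 and SLC36A3 follow one another on chromosome 7. Whether reads were counted by strand is not given in the sources used here, so reads from any overlap between such neighbours cannot be told apart.

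Of the SLC43 family, SLC43A1, a carrier of large neutral amino acids that works without a heavy subunit, was higher on the later days. It had 27.2, 26.3 and 19.4 CPM at day 6, 44.8, 68.8 and 73.5 at day 16, and 37.98, 55.6 and 69.0 at day 19, with no overlap between day 6 and the later days. SLC43A1 rose by 1.36 on the log2 scale at day 16 over day 6 (SE 0.28, adjusted p = 0.0150) and by 1.16 at day 19 over day 6 (SE 0.28, adjusted p = 0.0162). The day 16 call did not hold when replicate 2 or 3 of day 6 or of day 16 was left out (adjusted p of 0.0514 to 0.0782), and the day 19 call without day 6 replicate 3 or day 19 replicate 3 (adjusted p of 0.0569 and 0.0712).

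SLC43A3, the purine nucleobase carrier, had 109, 79.6 and 99.4 CPM at day 6, 105, 121 and 132 at day 16, and 166, 192 and 159 at day 19. Its day 19 libraries lay above all others. SLC43A3 was 1.79-fold higher at day 19 than at day 6 (log2 change 0.84, SE 0.18, adjusted p = 0.00997). At day 19 over day 16 the log2 change was 0.53 (adjusted p = 0.128), and 0.57 (adjusted p = 0.0188) without day 19 replicate 1. SLC43A2, the other carrier of large neutral amino acids, had 35.6, 10.1 and 15.8 CPM at day 19, against 17.4, 17.3 and 29.7 at day 6, and did not separate the days.

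**Figure D3:**
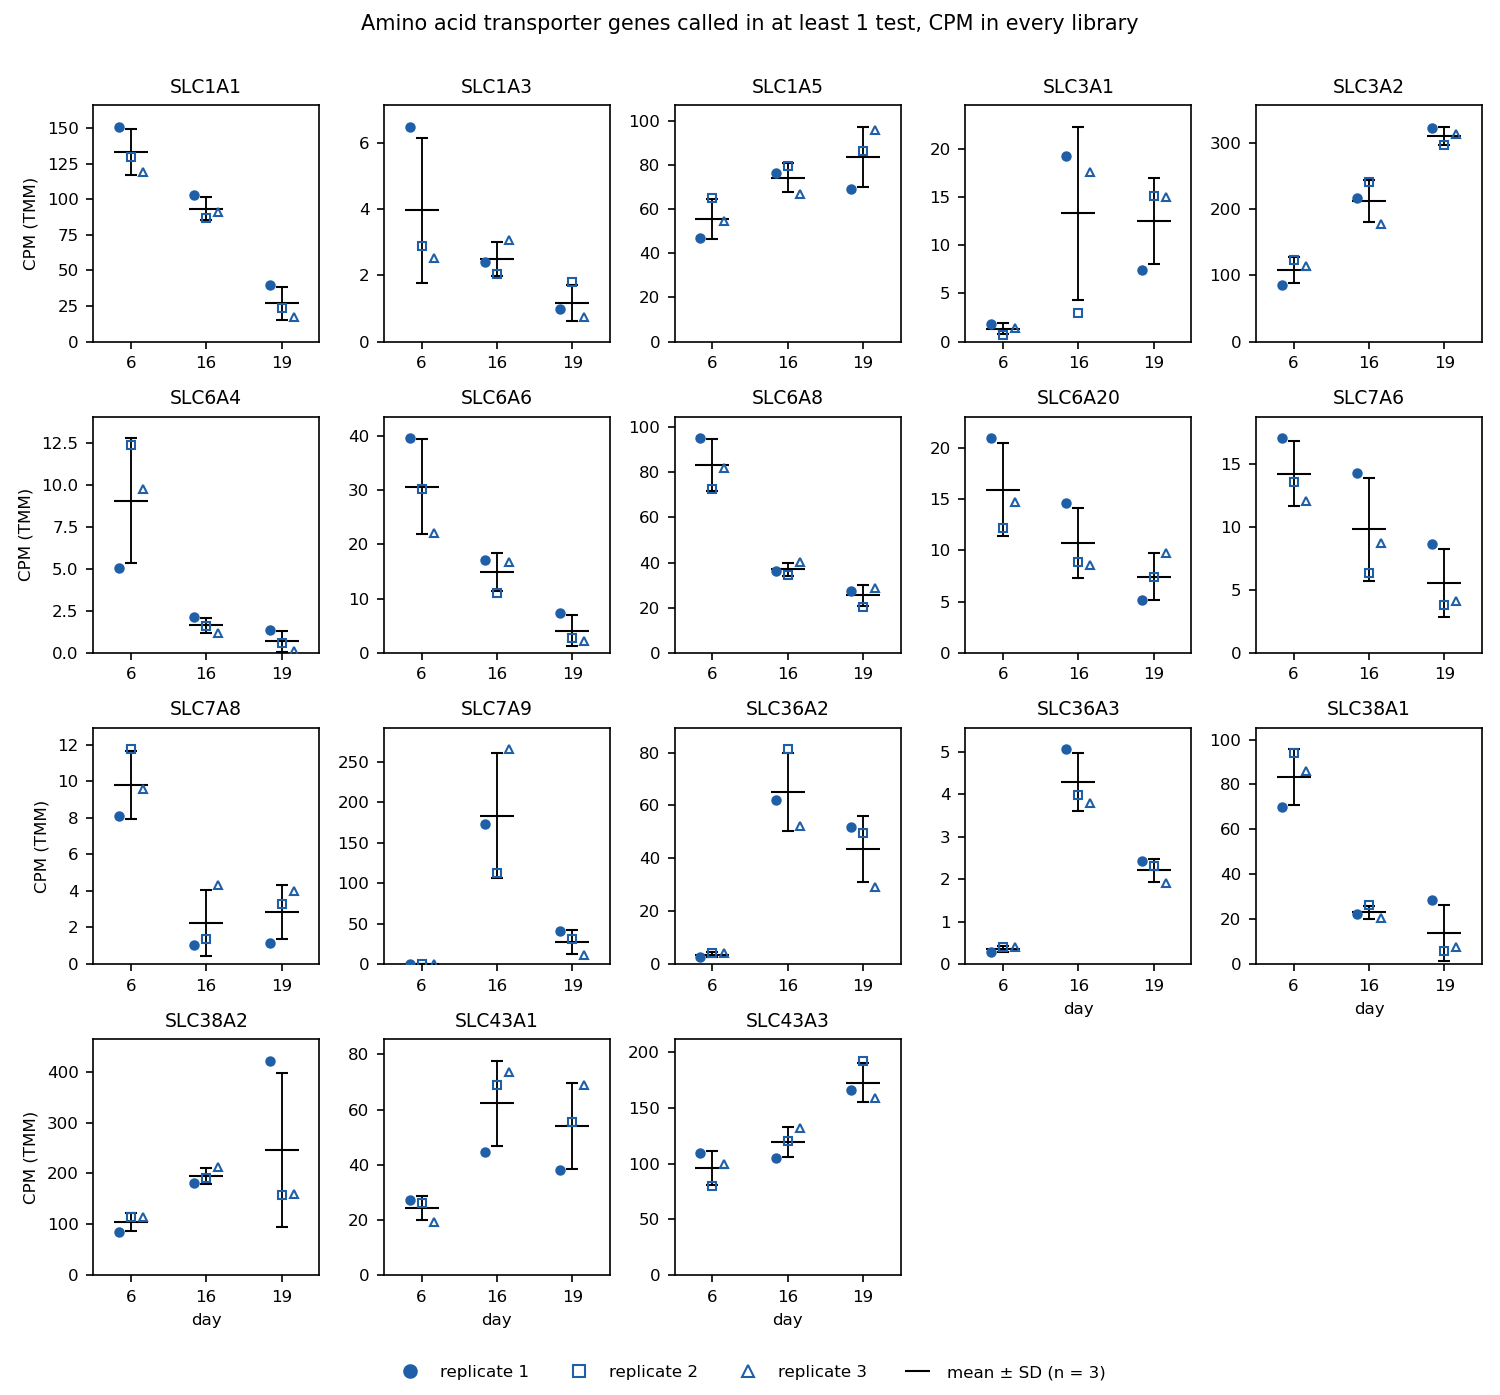
CPM of the reported carriers called in at least 1 test, 1 panel each with its own vertical scale, at days 6, 16 and 19 (filled circle replicate 1, open square replicate 2, open triangle replicate 3, bar mean ± SD of 3 libraries). SLC7A9 and SLC36A2 are near 0 at day 6, and for SLC38A1 and SLC38A2 the filled circle of day 19 lies above the other day 19 libraries.

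In the SLC38 family the neighbouring genes SLC38A1 and SLC38A2, adjacent on chromosome 5 in the RefSeq gene table, moved in opposite directions. Both encode sodium-coupled carriers of glutamine, alanine and other small neutral amino acids, and SLC38A2 is the one that many cells induce when amino acids are short. SLC38A1 had 69.9, 94.2 and 85.8 CPM at day 6, 22.3, 26.1 and 20.6 at day 16, and 28.4, 5.79 and 7.51 at day 19. All 6 later libraries lay below the lowest day 6 library. SLC38A1 fell by 2.58 on the log2 scale at day 19 over day 6 (SE 0.52, adjusted p = 0.00812), and by 3.63 without day 19 replicate 1 (adjusted p = 6.71e-06). At day 16 over day 6 the log2 change was -1.86 (SE 0.51, adjusted p = 0.0523), which passed without day 19 replicate 1 at an adjusted p of 8.83e-05. Day 19 over day 16 was -0.73 (adjusted p = 0.376), and -1.78 (adjusted p = 0.000151) without that library.

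SLC38A2 had 84.6, 115 and 114 CPM at day 6, 182, 191 and 212 at day 16, and 422, 157 and 159 at day 19. Every later library exceeded every day 6 library, and day 19 replicate 1 stood at more than 2-fold its companions. SLC38A2 rose by 1.24 on the log2 scale at day 19 over day 6 (SE 0.37, adjusted p = 0.0371), and by 0.62 without day 19 replicate 1 (adjusted p = 0.00632). The call did not hold when any 1 of the day 6 or day 16 libraries was left out, at adjusted p-values of 0.0577 to 0.129. At day 16 over day 6 the log2 change was 0.90 (SE 0.36, adjusted p = 0.182), and 0.90 with an adjusted p of 0.00167 without day 19 replicate 1. The log2 ratio of SLC38A2 to SLC38A1 counts averaged 0.32 ± 0.07, 3.09 ± 0.25 and 4.35 ± 0.43 on days 6, 16 and 19 (mean ± SD of 3 libraries), and in this ratio day 19 replicate 1, at 3.89, lay closer to its companions, at 4.75 and 4.40, than in either gene alone.

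The other 8 tested SLC38 genes were not called with all 9 libraries. SLC38A9, which reports lysosomal arginine to the growth regulator mTORC1, had 9.81, 4.09 and 3.91 CPM at day 19, against 8.63, 11.3 and 8.77 at day 6, with a log2 change of -0.69 (adjusted p = 0.192) and of -1.24 without day 19 replicate 1 (adjusted p = 0.00181). At day 19 over day 16, SLC38A9 changed by -1.35 without that library (adjusted p = 0.0016). SLC38A10, a little characterised relative, ran in narrow ranges, 87.3–90.8, 89.8–105 and 103–118 CPM on days 6, 16 and 19, and was called higher at day 19 than at day 6 without day 19 replicate 1 (0.41, adjusted p = 0.00925) and also by voom with all libraries. SLC38A4, which also carries basic amino acids, was called without day 19 replicate 1, lower at day 19 than at day 6 by a log2 change of -1.92 (adjusted p = 0.0185) and than at day 16 by -2.05 (adjusted p = 0.0172). SLC38A7, a glutamine carrier, had 23.9 to 29.1 CPM at day 19, against 31.0 to 36.9 at day 6, and was called lower without that library (-0.44, adjusted p = 0.0465).

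In the SLC1 family both tested glutamate carriers fell and the neutral carriers did not. SLC1A1, an epithelial and neuronal carrier of glutamate, aspartate and cysteine, had 151, 130 and 119 CPM at day 6, 103, 86.9 and 90.7 at day 16, and 39.6, 23.7 and 17.1 at day 19. The libraries of the 3 days did not overlap. SLC1A1 fell by 2.31 on the log2 scale at day 19 over day 6 (SE 0.29, adjusted p = 0.000771) and by 1.80 at day 19 over day 16 (SE 0.28, adjusted p = 0.0377). The second call was lost when any library other than day 19 replicate 1 was left out, with adjusted p-values of 0.0742 to 0.17, and was -2.18 at an adjusted p of 4.67e-05 without that one. SLC1A1 was also called lower at day 16 than at day 6 without day 19 replicate 1 (-0.51, adjusted p = 0.0357). SLC1A3, a glutamate carrier best known from glia, had 6.50, 2.88 and 2.53 CPM at day 6, 2.42, 2.05 and 3.07 at day 16, and 0.971, 1.80 and 0.740 at day 19.

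SLC1A3 was lower at day 19 than at day 6 by a log2 change of -1.75 (SE 0.50, adjusted p = 0.0336), with no overlap between the days. Among the fits that left out 1 library, the call was kept only without day 6 replicate 3, day 16 replicate 3 or day 19 replicate 1 or 2, and its adjusted p was 0.0503 to 0.131 without any other. SLC1A5, the exchanger that supplies glutamine to many dividing cells, had 69.1, 86.4 and 95.9 CPM at day 19, against 46.9, 65.2 and 54.6 at day 6, and 76.7, 79.7 and 66.9 at day 16. Its log2 change of day 19 over day 6 was 0.59 (SE 0.19, adjusted p = 0.0482), and among those fits the call was kept only without day 19 replicate 1 (0.73, adjusted p = 0.00277), with adjusted p-values of 0.0589 to 0.169 without any other library. SLC1A4, its close relative, had 32.8, 18.7 and 11.8 CPM at day 16, against 9.10, 12.05 and 12.3 at day 6, and was not called.

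In the SLC6 family no tested gene was called higher in any comparison, and SLC6A4, SLC6A6, SLC6A8 and SLC6A20 were lower at day 19 than at day 6. SLC6A8, the creatine carrier, had 95.1, 72.5 and 82.0 CPM at day 6, 36.3, 34.6 and 40.1 at day 16, and 27.3, 20.2 and 28.9 at day 19. The libraries of the 3 days did not overlap, and SLC6A8 fell by 1.17 on the log2 scale at day 16 over day 6 (SE 0.19, adjusted p = 0.00511) and by 1.71 at day 19 over day 6 (SE 0.19, adjusted p = 0.000502). Without day 19 replicate 1 it was also called lower at day 19 than at day 16 (-0.58, adjusted p = 0.0278). SLC6A6, the taurine carrier, had 39.5, 30.2 and 22.1 CPM at day 6, 17.1, 10.9 and 16.8 at day 16, and 7.38, 2.70 and 2.12 at day 19, again with no overlap. SLC6A6 fell by 2.90 on the log2 scale at day 19 over day 6 (SE 0.46, adjusted p = 0.00257), and by 3.65 without day 19 replicate 1 (adjusted p = 4.42e-05). Without that library SLC6A6 was also called at day 16 over day 6 (-1.04, adjusted p = 0.0173) and at day 19 over day 16 (-2.61, adjusted p = 0.000356).

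SLC6A4, the serotonin carrier, had 5.01, 12.4 and 9.75 CPM at day 6, 2.11, 1.59 and 1.17 at day 16, and 1.36, 0.599 and 0.106 at day 19. Every later library was below day 6. SLC6A4 fell by 2.47 at day 16 over day 6 (log2 scale, SE 0.61, adjusted p = 0.0351), a call that did not hold when replicate 2 or 3 of day 6, or any 1 of the day 16 libraries, was left out (adjusted p of 0.0904 to 0.133). At day 19 over day 6 SLC6A4 fell by 3.67 (SE 0.66, adjusted p = 0.00482), and without day 19 replicate 1 the log2 change was -4.595 (adjusted p = 0.000387), with -2.12 for day 19 over day 16 (adjusted p = 0.0332).

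SLC6A20, the carrier of proline and other imino acids, had 5.15, 7.39 and 9.73 CPM at day 19, against 21.0, 12.2 and 14.7 at day 6, and 14.6, 8.88 and 8.56 at day 16. Its log2 change of day 19 over day 6 was -1.10 (SE 0.34, adjusted p = 0.0416), kept among the fits without 1 library only when that was day 16 replicate 1 or day 19 replicate 1 or 3, with adjusted p-values of 0.0522 to 0.138 without any other library. SLC6A9, the widespread glycine carrier, had 87.2 CPM in day 19 replicate 1 and 32.3 and 30.6 in the others, against 32.8 to 44.2 at day 6, and was not called with all libraries. Its day 16 libraries, at 28.0, 25.3 and 17.3 CPM, lay below all of day 6. SLC6A9 was called lower at day 16 than at day 6 without day 19 replicate 1 (-0.76, adjusted p = 0.0205).

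Summed by family, the carriers differed between families in the order of the days. The SLC3 sum was 109 ± 19.0, 226 ± 26.2 and 324 ± 10.3 CPM on days 6, 16 and 19 (mean ± SD of 3 libraries), and the SLC43 sum 142 ± 16.4, 197 ± 26.0 and 247 ± 9.65 CPM. The SLC7 sum was 136 ± 3.91, 300 ± 81.2 and 142 ± 65.5 CPM, and SLC7A9 averaged 183 CPM of it at day 16. In day 19 replicates 1, 2 and 3 the SLC7 sum was 218, 110 and 99.4 CPM, against 132 to 139 at day 6. Replicate 1 thus lay above the day 6 libraries and the other day 19 libraries below them. The SLC6 sum was 193 ± 11.5, 98.7 ± 12.3 and 96.8 ± 36.8 CPM, with 139, 69.8 and 81.8 CPM in the day 19 libraries. The SLC1 sum was 204 ± 13.4, 192 ± 21.3 and 129 ± 4.03 CPM. The 57 genes together summed to 1153–1189 CPM on day 6, to 1499–1560 CPM on day 16, and to 1773, 1272 and 1274 in the day 19 libraries. These sums are dominated by the most counted genes and are given without a test.

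**Figure D4:**
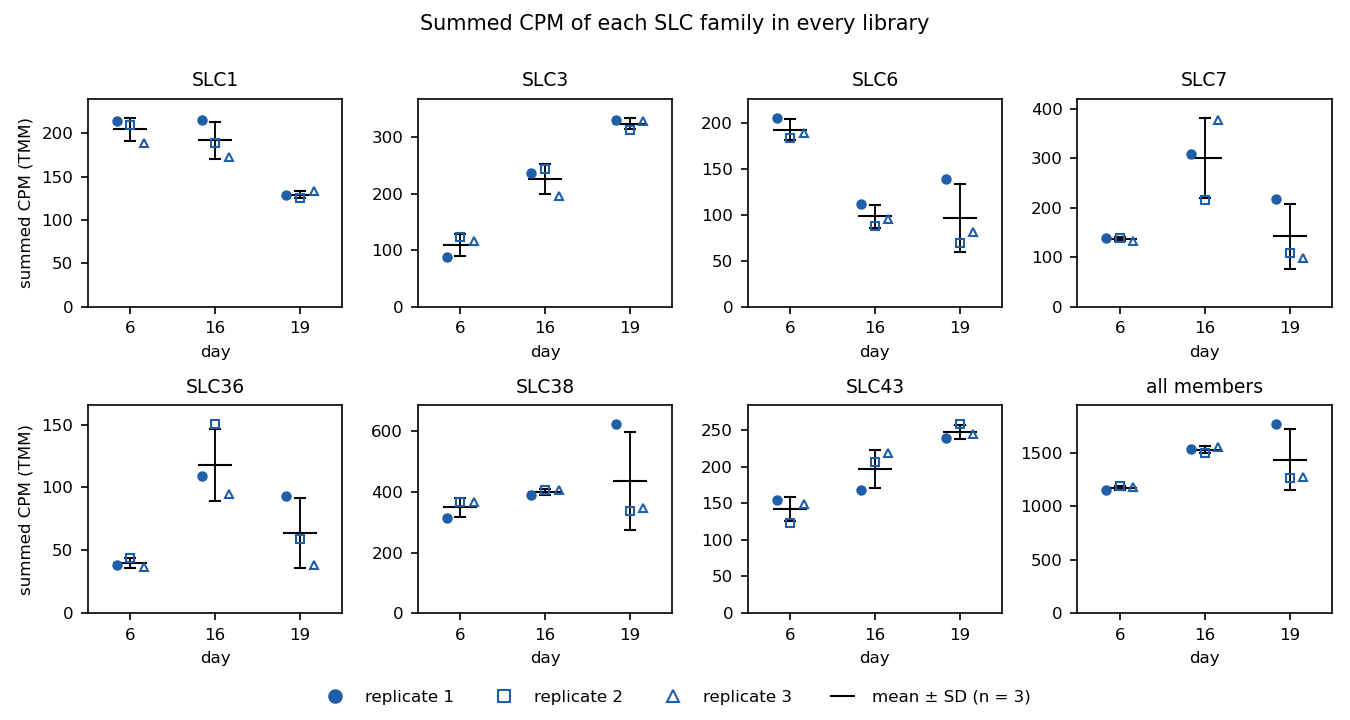
Summed CPM of each SLC family by library at days 6, 16 and 19 (filled circle replicate 1, open square replicate 2, open triangle replicate 3, bar mean ± SD of 3), 1 panel per family and 1 for all members. The SLC3 and SLC43 sums increase through the days, the mean SLC7 sum is highest at day 16, and the SLC1 and SLC6 sums are lower at day 19 than at day 6.

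By substrate, most classes held carriers that were not called or that went both ways at day 19 over day 6. Both tested carriers of acidic amino acids (SLC1A1 and SLC1A3, of 5 in the class) were lower. So were the taurine and creatine carriers SLC6A6 and SLC6A8. Both heavy subunits were higher. Of the 5 tested carriers of glycine, proline and imino acids (7 in the class), SLC36A2 was higher and SLC6A20 lower. Of the 6 tested carriers of glutamine and small neutral amino acids, SLC38A2 was higher and SLC38A1 lower. SLC43A1 alone of 4 tested carriers of large neutral amino acids was called, higher, and SLC7A6 alone of 4 tested cationic carriers, lower. SLC1A5 was the 1 called of 3 tested exchangers of small neutral amino acids, higher, and SLC6A4 the 1 of 2 tested monoamine carriers, lower. SLC7A9, higher, was the 1 tested light subunit of cystine carriers. Of 6 tested members with little characterised or other substrates, SLC36A3 and SLC43A3 were higher. These counts stand beside 12.7% of all genes higher and 10.2% lower, and nothing particular to a class was tested.

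Gene groups around the carriers were read from the same fit. For this list and the next, the shares of all genes called over day 6 were 5.12% higher and 3.74% lower at day 16. At day 19 they were 12.7% and 10.2%. Of 9 tested carriers of amino acids and peptides from other families, 2 were higher and none lower at day 16 than at day 6, and likewise at day 19. SLC15A3, a lysosomal carrier of histidine and peptides, was one of them on both days, with log2 changes of 2.28 at day 16 (adjusted p = 0.00434) and 2.66 at day 19 (adjusted p = 0.00126). The others were SLC15A4, of the same function, at day 16 (0.58, adjusted p = 0.0469) and MFSD12, a cysteine carrier of lysosomes and melanosomes, at day 19 (1.47, adjusted p = 0.00245). Among the fits without 1 library, the SLC15A4 call was kept only when day 19 replicate 1 was left out, and its adjusted p was otherwise 0.0561 to 0.201. Of 9 tested partners and regulators of the carriers, 1 was higher and 1 lower at day 16 than at day 6. At day 19 over day 6 the counts were 2 and 1, and 1 of 9 lower was near the share of all genes. TMEM27, a partner of SLC6 carriers in the kidney, was 0.98 higher there (adjusted p = 0.0402). Among those fits the TMEM27 call was kept only without day 16 replicate 2 or 3 or day 19 replicate 1, and its adjusted p was 0.0602 to 0.135 otherwise. SGK1, a kinase that raises the surface level of several carriers, was 1.41 higher at day 16 than at day 6 on the log2 scale (adjusted p = 0.0206, and 0.0554 to 0.102 without replicate 2 or 3 of day 6 or replicate 1 or 2 of day 16). At day 19 over day 6 SGK1 was 1.23 higher (adjusted p = 0.0197, and 0.0793 to 0.082 without replicate 2 or 3 of day 6). PDZK1, a scaffold that anchors apical carriers, was lower at day 16, at 8.004, 3.08 and 3.07 CPM, against 401, 418 and 307 CPM at day 6, a log2 change of -6.31 (adjusted p = 0.000194). At day 19 PDZK1 stood at 1.85, 2.60 and 5.18 CPM, a log2 change of -6.87 over day 6 (adjusted p = 8.85e-05).

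The genes of the amino acid response, which the factor ATF4 induces when amino acids are short, did not move as a block. Of 27 tested, 5 were higher and 4 lower at day 16 than at day 6, and 12 were higher and 6 lower at day 19 than at day 6 (13 and 7 without day 19 replicate 1). The shares of all genes called were 5.12% up and 3.74% down for day 16, and 12.7% and 10.2% for day 19 (27.2% and 27% without that library), so the 7 of 27 lower was near the share of all genes. ATF4 itself had 592, 970 and 1101 CPM at day 19, against 245, 273 and 267 at day 6 (log2 change 1.76, adjusted p = 0.00167). Among those higher at day 19 were ATF3, a stress-induced factor, at a log2 change of 4.48, CTH, an enzyme of cysteine synthesis, at 4.10, and NUPR1, a stress-induced chromatin protein, at 3.92. PSAT1, an enzyme of serine synthesis, was among the lower, at 8.35, 17.9 and 19.99 CPM at day 19, against 446, 483 and 462 at day 6 (log2 change -4.91, adjusted p = 8.85e-05). At day 16 over day 6 the serine synthesis enzymes PSAT1 and PHGDH stood at log2 changes of -4.59 and -3.57, with adjusted p-values of 0.000194 and 0.000228.

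For day 19 over day 16, DDIT3, a stress-induced factor, was higher and ALDH1L2, a mitochondrial folate enzyme, was lower, at adjusted p-values of 0.0407 and 0.0377. Both calls were lost when any library other than day 19 replicate 1 was left out. Of 33 tested genes of lysosomal amino acid sensing to mTORC1, 1 was lower and 0 higher at day 16 than at day 6. That was near the shares of all genes, 3.74% lower and 5.12% higher. The 1 lower was RRAGD, a GTPase of the sensor (log2 change -1.45, adjusted p = 0.0301, and 0.117 to 0.123 without replicate 2 or 3 of day 6 or replicate 1 or 2 of day 16). At day 19 over day 6, 3 were higher and 4 lower, and without day 19 replicate 1, 11 were higher and 9 lower. Both pairs of counts were near the shares of all genes, 12.7% and 10.2% with all libraries and 27.2% and 27% without that one. SESN3 and SESN2, relatives that restrain mTORC1, stood on opposite sides at day 19 over day 6, at log2 changes of -1.72 (adjusted p = 0.00164) and 1.26 (adjusted p = 0.0057).

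Cell markers moved beside these results. At day 19 over day 6, 7 of 9 tested macrophage markers were higher and 1 lower, their sum being 980 to 1558 CPM at day 19 and 315 to 722 at day 6. Among 19 epithelial markers, 4 were higher and 4 lower (11 and 4 without day 19 replicate 1), and at day 16 over day 6, 4 were higher and 1 lower. The background for these marker counts was 12.7% up and 10.2% down for day 19 over day 6, 27.2% and 27% without that library, and 5.12% and 3.74% for day 16 over day 6. MAL2, an apical trafficking protein, had the largest rise of the 4 epithelial markers higher at day 16. It stood at 72.0, 49.4 and 102 CPM at day 16, against 9.38, 5.25 and 4.29 at day 6. KRT7 was the 1 lower, at 29.9, 34.6 and 43.5 CPM at day 16, against 169, 115 and 105 at day 6. Smooth muscle markers gave 2 higher and 0 lower at day 19 over day 6, endothelial markers 0 and 2 (9 tested), T and NK lymphocyte markers 1 and 0 (9 tested), and stromal markers 0 and 0 (10 tested). Of 13 listed trophoblast markers only 6 were in the table, and these summed to 2.33 to 6.18 CPM in any library. The other listed trophoblast markers could not be read. The part of cell composition in the carriers' changes was not tested.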

How the data were processed

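The table the authors deposited holds raw counts of reads for each gene, 1 column per library. Per the labels' protocols, poly(A) RNA was fragmented with RNase III before adaptor ligation for an Ion sequencer. How reads were aligned and counted, and against which build and annotation, is not given in the sources used here. Members and gene lists were chosen with earlier results of these data known.

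Tests used edgeR 4.0.16 (R 4.3.3): TMM scaling, filterByExpr by day (16098 genes kept), and a robust quasi-likelihood fit to all 9 libraries with day as its only term. Calls are genes with an adjusted p below 0.05 (Benjamini-Hochberg, across the 16098 genes). The SE is the absolute log2 change divided by the square root of F. The common biological coefficient of variation was 0.318. No libraries of a day agreed within sampling noise (lowest chi-square per degree of freedom 9.86). Counting intervals (95%) cover counting error only. The procedure was tested on simulated data.

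Values in every library are given for members called in any comparison or by the F test and for the heavy subunits. They are also given for the highest member of each family and the tested light subunits, except SLC7A10, which is given as a range. At most 4 genes are named per list and comparison. Other genes named, among them SLC7A1, SLC7A2, SLC36A1, SLC36A4, SLC6A9, SLC38A9, SLC38A10, SLC38A4, SLC38A7, SLC1A4, SLC43A2, SLC1A7, ATF4, EPCAM, MAL2 and KRT7, were chosen after their values were seen. Gene order came from a RefSeq table, in which 56 of the 57 members had their gene identifier, and none of its coordinates were used. Alternatives were DESeq2 1.42.0, limma 3.58.1 voom with sample weights, RLE and upper quartile scaling, no filter, a stricter filter (1 CPM in 6 libraries), no robust estimation, only the days compared, the replicate number as a block, and each library left out. The results of 1 tested member are not reported here, though it is part of the counts and sums. The planned search of promoters for motifs was not run.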

Additional observations from a re-analysis of the deposited data

How the results depend on the processing

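No call reversed under any alternative, and 16 of the 28 pairwise calls of carriers were kept in all of them. Counts of all genes called are given in brackets. For day 16 against day 6, where 8 carriers were called (1427 of 16098 genes), voom called 15 (3811 of 16098). The fit to only those days called 14 (3092 of 15644) and DESeq2 10 (2235 of 18149). The fits without 1 library called 4 to 14 (664 to 3345 genes). For day 19 against day 16, with 2 called (193 genes), DESeq2 called 4 (1680 of 16082 genes) and voom 16 (7354 of 16098). The fits without 1 library called 0 to 17 (0 to 7331 genes). The edgeR fit to only those days called 0 carriers (0 of 15605 genes), as did that with the replicate number as a block (0 of 16098 genes). In the fit as reported, 11 carriers had an unadjusted p under 0.05 in this comparison. For day 19 against day 6, with 18 called (3684 genes), voom called 28 (9433 genes) and the fits without 1 library 13 to 28 (1928 to 8891 genes). For the F test, with 14 called (3156 genes), voom called 27 (10215 genes) and the fits without 1 library 8 to 26 (1416 to 9703 genes). Among the fits without 1 library, the highest count of each test came without day 19 replicate 1. The cause was not tested. Over 9 pairs of libraries with the same replicate number the correlation of deviations from the day means ran between -0.164 and 0.153, with 1 over 0.1. Pairs with different numbers ran between -0.134 and 0.2. The same numbers thus did not stand out, but with 3 libraries per day these values cannot exclude a pairing. With the replicate block 8, 0 and 15 carriers were called for day 16 against day 6, day 19 against day 16 and day 19 against day 6, and 14 by the F test. Of all 16098 genes that fit called 1100, 0, 2899 and 2201 in this order. Genes with few counts, such as SLC7A9 at day 6, are limited by counting error.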

Other observations

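Besides the named members, 31 rows of the table were described as cationic amino acid transporter 3-like and carried only locus identifiers. They summed to 435 to 2081 counts per library, 11 of them were tested and 2 had 0 counts, while SLC7A3 itself had 26 counts in all 9 libraries. LOC102190544 had 316, 343 and 323 counts at day 6, 88, 49 and 36 at day 16, and 29, 23 and 29 at day 19. It was lower at day 16 than at day 6 by a log2 change of -2.41 (adjusted p = 0.00254) and at day 19 than at day 6 by -3.55 (adjusted p = 0.000336). LOC102169897 had 554, 10 and 20 counts at day 6, 519, 717 and 703 at day 16, and 129, 7 and 18 at day 19, and was not called; replicate 1 lay far above its companions at days 6 and 19. Their sequences were not compared here. Whether these rows share reads with one another or with SLC7A3 is not known, so single rows are uncertain. Of the likely relatives of SLC7A9, the row LOC102174667, described as a B(0,+)-type transporter 1-like gene, had 110 counts in all.

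SLC15A1, a peptide carrier of the intestinal brush border, split the day 6 libraries. It had 0.278, 81.4 and 0.292 CPM at day 6, 94.99, 122 and 72.5 at day 16, and 52.8, 77.1 and 56.2 at day 19. Day 6 replicate 2 thus lay within the later days for this gene, while in SLC7A9 and SLC36A2 it lay with its own day.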
